A study of Mus musculus with 12 samples.

Results

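The 8 nicotinic acetylcholine receptor subunits described here were Chrna1, Chrna3, Chrna4, Chrna7, Chrna9, Chrna10, Chrnb2 and Chrnb4, 8 of the 24489 genes in the read count table, chosen by name and not by any measured value. The table came from single RFP+ cells sorted from the mouse cochlea into 384-well plates and sequenced by Smart-seq2, a full-length method without molecular identifiers and without strand information. Each of the 12 plates was 1 sample: 2 at E14.5, 2 at E15.5, 3 at E16.5, 1 at E17.5, 2 at E18.5 and 2 at P3. Ai14 is a reporter that makes tdTomato after Cre recombination. Replicate 1 at E14.5 and all plates of the other stages were labelled PVcre;Ai14, in which parvalbumin drives Cre, and replicate 2 at E14.5 was labelled TrkCcre, in which Ntrk3 drives Cre. The study's methods give the Ntrk3 driver for E14.5 and the parvalbumin driver for later embryos, and by that account driver and stage cannot be told apart between E14.5 and the rest. The sort selected for reporter fluorescence, yet glia-like and otic mesenchyme-like cells were also among those kept, and cells of several animals were pooled in each experiment. No treatment separated the groups, and stage and cell class were compared.

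The 4226 cells kept had a median of 232473 to 1092427 counts per cell across plates. Clustering of each stage without the 8 subunits gave 2302 cells with spiral ganglion neuron markers (SGN-like), 1223 glia-like cells, 576 otic mesenchyme-like (OM-like) cells and 86 hair cell-like (HC-like) cells, and 39 cells stayed unnamed. Hair cells at E18.5 were named by marker scores as inner (IHC-like, 5 and 12 cells on replicates 1 and 2), outer (OHC-like, 9 and 4 cells) and vestibular (VHC-like, 13 and 13 cells), and 10 and 3 further cochlear hair cells fitted neither cochlear name. All 9 hair cell markers were detected in the IHC-like, OHC-like and VHC-like sums at E18.5, with summed levels of 8292 to 9359 CPM, the counts of a gene scaled to the summed counts of a class against 246 and 246 in SGN-like cells. The 8 neuronal markers summed to 8737 and 9166 CPM in SGN-like cells at E18.5 and to between 678 and 1411 in the 3 hair cell classes. The 6 inner markers summed to 2341 to 2371 CPM in IHC-like and 332 to 588 in OHC-like cells, and the 6 outer markers to 49.9 to 60.9 and 421 to 489. All 6 vestibular markers were detected in VHC-like cells and 3 in IHC-like and OHC-like cells. Their summed level was lower in VHC-like cells, at 1829 to 2217 CPM, than in named cochlear hair cells, at 2348 to 2620. The 6 inner markers summed to 1427 to 1767 CPM in VHC-like cells. A further 5 markers, used to set cochlear against vestibular hair cells, summed to 805 to 950 CPM there and 1173 to 1439 in named cochlear hair cells. The vestibular name came from scores that scaled each marker to its highest cluster. Levels below are CPM of the counts summed over the cells of a class on a plate, and the plate, not the cell, was the replicate.

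Nicotinic receptors are pentameric cation channels opened by acetylcholine. In hair cells, Chrna9 and Chrna10 form the receptor of the efferent synapse, through which olivocochlear fibres inhibit the cell: calcium entering the channel opens the small-conductance potassium channel encoded by Kcnn2. Chrna4 with Chrnb2 makes the most common heteromeric receptor of brain neurons, Chrna3 with Chrnb4 makes the main receptor of autonomic ganglia, and Chrna7 forms homomeric channels with high calcium permeability. Chrna1 is the ligand-binding subunit of the muscle receptor, which it forms with Chrnb1, Chrnd and either the fetal subunit Chrng or the adult subunit Chrne.

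Coordinates are those of GRCm38 with the GENCODE M21 annotation. The pair of the efferent receptor lay apart, Chrna9 at chr5:65934921-65977326 on the plus strand with 10 merged exons and Chrna10 at chr7:102111266-102116828 on the minus strand with 5. Chrna1 had 9 merged exons at chr2:73563215-73580338 on the minus strand. Chrna4 had 8 at chr2:181018380-181043546 and Chrnb2 had 7 at chr3:89746195-89764632, both on the minus strand. Chrna3 (chr9:55010111-55026562, 6 merged exons) and Chrnb4 (chr9:55028154-55048779, 6 merged exons) were neighbours on the minus strand of chromosome 9. Chrna7 had 11 at chr7:63098692-63212569 on the minus strand. Exons of Chrna10 shared 1025 bases with Art1 and exons of Chrnb2 shared 1365 bases with Adar, both on the opposite strand, and reads of such bases cannot be told apart without strand.

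The sequences just upstream of 4 genes are shown because their transcripts were found in hair cells: Chrna1, Chrna9 and Chrna10 in every hair cell class, and Chrnb2 in hair cells and neurons alike. They were chosen after the levels had been seen. Transcripts of Chrnb4 were also found in hair cells and those of Chrna4 in VHC-like cells, but the sequences of these genes are not shown. All 8 genes matched an entry of the RefSeq promoter table (GRCm38.p6), and up to 250 bases before the RefSeq start are printed 5′ to 3′, without bases that fall in an annotated exon. Capitals mark CANNTG, the E-box core bound by basic helix-loop-helix factors such as Atoh1, which reads as CANNTG on both strands.
Chrna1 (chr2:73580339-73580588, minus strand): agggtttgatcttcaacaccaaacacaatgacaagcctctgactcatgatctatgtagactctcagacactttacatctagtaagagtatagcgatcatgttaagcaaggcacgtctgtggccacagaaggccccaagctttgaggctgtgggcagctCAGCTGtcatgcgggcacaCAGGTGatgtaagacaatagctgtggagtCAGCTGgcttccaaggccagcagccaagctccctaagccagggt
Chrna9 (chr5:65966874-65967123, plus strand): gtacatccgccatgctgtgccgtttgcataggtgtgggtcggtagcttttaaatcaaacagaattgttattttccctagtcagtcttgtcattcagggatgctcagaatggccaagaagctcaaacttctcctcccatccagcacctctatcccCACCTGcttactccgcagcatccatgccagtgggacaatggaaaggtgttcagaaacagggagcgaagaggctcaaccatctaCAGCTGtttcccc
Chrna10 (chr7:102116829-102116963, minus strand): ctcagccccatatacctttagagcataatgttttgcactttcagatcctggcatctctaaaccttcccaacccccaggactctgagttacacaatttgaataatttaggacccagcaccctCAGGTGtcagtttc
Chrnb2 (chr3:89764633-89764882, minus strand): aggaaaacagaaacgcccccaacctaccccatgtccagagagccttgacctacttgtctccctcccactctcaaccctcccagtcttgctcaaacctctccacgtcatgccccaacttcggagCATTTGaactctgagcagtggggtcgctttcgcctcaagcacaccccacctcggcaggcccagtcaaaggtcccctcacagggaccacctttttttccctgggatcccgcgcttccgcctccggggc
The Chrna1 window held 3 such hexamers, of which 2 read CAGCTG, and the Chrna9 window held 2, of which 1 read CAGCTG. One hexamer stood in each of the other two stretches. The Chrna9 window lay inside the longer GENCODE span of the gene, outside its exons. Over 250 bases before all 32851 RefSeq starts, 66.2% held CANNTG and 13.001% held CAGCTG, so a match is common and says nothing of binding.

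The first comparison asked which subunits separated hair cells from neurons at E18.5, the stage with most hair cells. Cochlear hair cells carried Chrna1, Chrna9 and Chrna10 well above the neurons, whereas SGN-like cells carried Chrna4 and Chrnb2. For Chrna9, IHC-like cells were at 710 and 581 CPM on replicates 1 and 2, OHC-like cells at 738 and 636, VHC-like cells at 332 and 251, and SGN-like cells at 1.40 and 2.30. For Chrna10 the levels were 728 and 579 CPM in IHC-like, 971 and 951 in OHC-like, 591 and 594 in VHC-like and 0.0990 and 0.318 in SGN-like cells. For Chrna1 they were 563 and 579 CPM in IHC-like, 100 and 28.1 in OHC-like, 162 and 163 in VHC-like and 0.812 and 0.637 in SGN-like cells. No plate of any hair cell class came near the neuronal level of these 3 genes. Fewer cells with a transcript and less transcript per cell cannot be told apart in such sums, so shares of cells are given below.

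**Figure D1:**
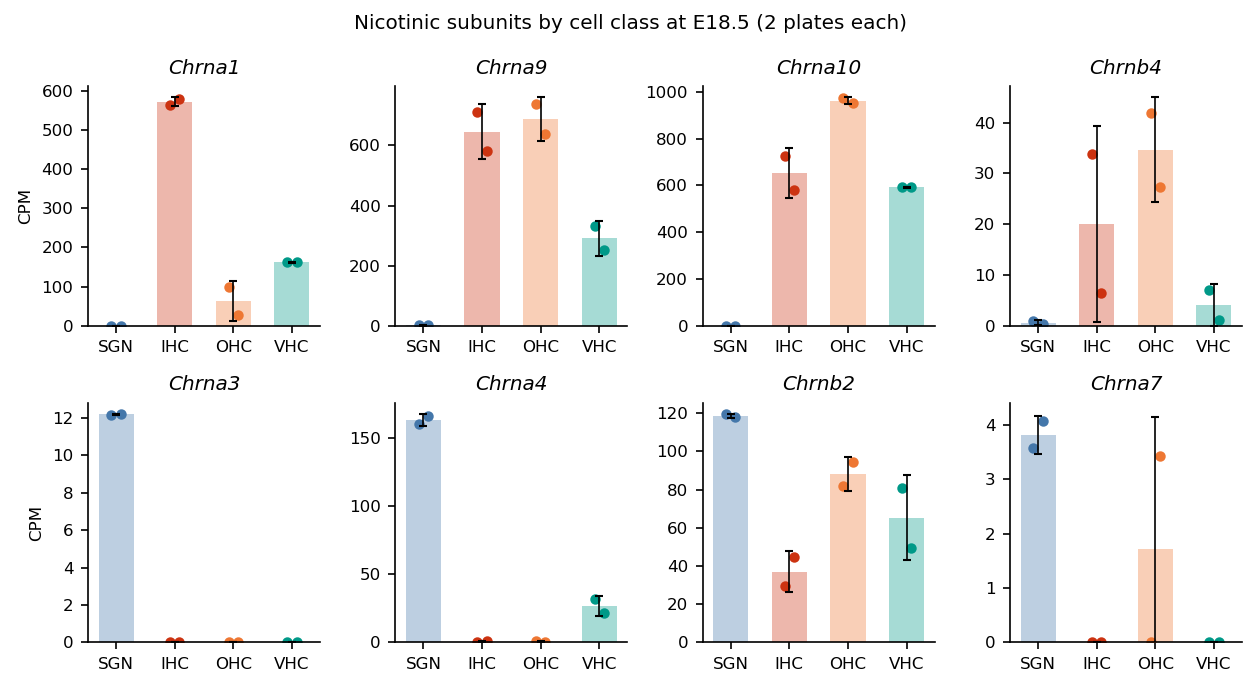
Levels of the 8 nicotinic subunits in SGN-like, IHC-like, OHC-like and VHC-like cells at E18.5, in CPM of the counts summed per class and plate; bars are means, points the 2 plates and error bars the SD. Chrna9, Chrna10 and Chrna1 stand high in the hair cell classes, up to 971 CPM, and Chrna4 in SGN-like cells, at 160 and 166.2 CPM.

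In edgeR's quasi-likelihood test of summed cochlear hair cells (IHC-like and OHC-like together) against SGN-like cells, 8 of 8 subunits were tested and 8 passed the threshold of 0.05 on the Benjamini-Hochberg adjusted p, 4 higher and 4 lower in hair cells. The classes differed widely: 52.2% of all 15821 genes tested passed, 23.9% higher and 28.3% lower. Chrna10 was higher by 11.72 ± 0.47 (SE) on the log2 scale (adjusted p = 5.33e-05). Chrna1 was higher by 8.91 ± 0.37 (adjusted p = 5.8e-05) and Chrna9 by 8.42 ± 0.32 (adjusted p = 4.81e-05). Chrnb4, the partner of Chrna3 in ganglionic receptors, was higher by 5.26 ± 0.83 (adjusted p = 0.00425), at 33.8 and 6.51 CPM in IHC-like and 41.9 and 27.4 in OHC-like cells against 0.971 and 0.318 in SGN-like cells. In the IHC-like cells of replicate 1, 67.9% of the Chrnb4 counts came from 1 cell.

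The subunits that were lower in hair cells were those of neuronal receptors. Chrna4 was at 160 and 166.2 CPM in SGN-like cells against 0 and 0.964 in IHC-like and 1.07 and 0 in OHC-like cells, a difference of -7.91 ± 0.22 on the log2 scale (adjusted p = 2.95e-05). Chrna3 was at 12.2 and 12.2 CPM in SGN-like cells and had no count in either cochlear class, which puts hair cells at least 40.9-fold lower with 3 counts over the group as the floor (adjusted p = 0.000939). Chrna7 reached only 3.57 and 4.06 CPM in SGN-like cells and was found in 1 of 30 named cochlear hair cells (difference -2.999 ± 0.86, adjusted p = 0.0334). Chrnb2 was carried by neurons and by all 3 named hair cell classes: 119 and 118 CPM in SGN-like, 29.5 and 44.6 in IHC-like, 82.0 and 94.4 in OHC-like and 81.0 and 49.6 in VHC-like cells, with a difference of -1.02 ± 0.12 for cochlear hair cells (adjusted p = 0.0016). Adar, whose exons it shares bases with, was at 77.1 and 72.8 CPM in SGN-like and between 22.9 and 43.1 in hair cell classes, and its part in the result was not tested.

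Per kilobase of exon, which allows genes to be compared, Chrna10 stood highest in OHC-like cells at 366 ± 5.59 CPM per kb (SD, n = 2 plates), followed by Chrna9 at 227 ± 23.7 and Chrna1 at 14.6 ± 11.6. In IHC-like cells the order was Chrna10 at 248.5 ± 40.0, Chrna9 at 213 ± 30.2 and Chrna1 at 130 ± 2.62 CPM per kb, the first 2 lying within their spread. In VHC-like cells Chrna10 was at 226 ± 0.648, Chrna9 at 96.3 ± 19.1 and Chrna1 at 36.97 ± 0.132. The ranges of the 3 genes did not overlap there. In SGN-like cells Chrna4 led with 32.5 ± 0.882 CPM per kb, then Chrnb2 with 14.2 ± 0.117, Chrna3 with 2.32 ± 0.00344, Chrna7 with 0.846 ± 0.0776 and Chrna9 with 0.611 ± 0.211. Neighbours in the neuronal order did not overlap. The exon lengths include 1025 bases that Chrna10 shares with Art1 and 1365 that Chrnb2 shares with Adar. Reads of those bases cannot be told apart, which limits the ranking of both genes.

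Cell by cell, Chrna9 and Chrna10 were both read in 17 of 17 IHC-like and 13 of 13 OHC-like cells, and in 23 of 26 VHC-like cells, of which 1 had Chrna9 alone, 1 had Chrna10 alone and 1 had neither. Chrna1 joined them in 17 of 17 IHC-like, 11 of 13 OHC-like and 18 of 26 VHC-like cells. The median depths of these cells were 356831, 339238 and 327024 counts. Within IHC-like cells Chrna9 ran from 326 to 768 CPM with a median of 622, Chrna10 from 120 to 907 with a median of 654, and Chrna1 from 78.6 to 2040 with a median of 494. The spread of Chrna1 among cells was thus the widest of the 3. In SGN-like cells Chrna9 was read in 68 of 660 cells (10.3%, exact 95% interval 8.09 to 12.9), Chrna10 in 21 and both in 5. After thinning each cell to 100000 counts, the share with a Chrna9 read was 5.56% and 8.16% of SGN-like cells on the 2 plates and 100% of IHC-like and OHC-like cells. Chrna4 was read in 635 of 660 SGN-like cells (96.2%), Chrnb2 in 652 and both in 627. Chrna3 was read in 235 (35.6%) and Chrnb4 in 18, with both in 10. Intervals and floors cover counting error only.

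**Figure D2:**
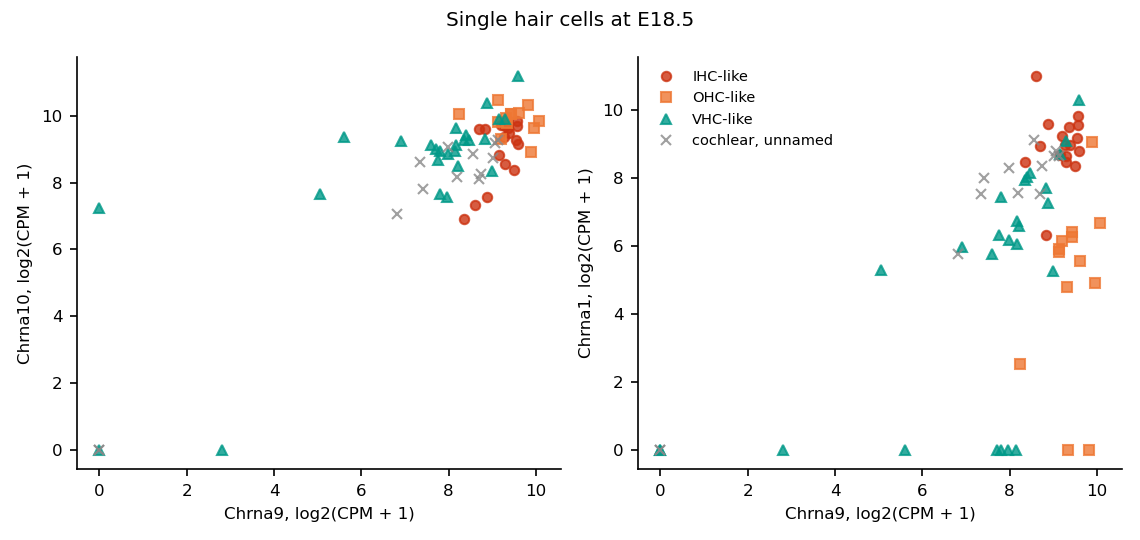
Single hair cells at E18.5, with Chrna9 on both x axes and Chrna10 (left) or Chrna1 (right) on the y axis, all as log2(CPM + 1) of each cell; colours and symbols give the class, crosses the cochlear hair cells with neither name. Every IHC-like and OHC-like cell is above 0 on both axes of the left panel, while 2 of the 13 OHC-like cells lie at 0 for Chrna1.

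Of 37 other genes of the cholinergic pathway, 30 were tested between cochlear hair cells and neurons, and 5 were higher and 14 lower in hair cells (median log2 difference -0.51, against -0.13 over all genes). Of the other nicotinic subunits, 6 of 8 were tested, 2 were higher and none was lower. Chrng, the fetal subunit of the muscle receptor, was at 468 and 426 CPM in IHC-like, 190 and 263 in OHC-like, 234 and 220 in VHC-like and 5.81 and 4.68 in SGN-like cells (difference 5.98, adjusted p = 5.21e-05). Chrnb1 was at 41.6 and 31.3 CPM in IHC-like, 87.4 and 38.3 in OHC-like and 2.71 and 3.10 in SGN-like cells (difference 4.096, adjusted p = 0.000796). The muscle receptor's remaining subunits were near 0: Chrnd had no count in IHC-like cells and 1 and 0 counts in OHC-like cells, and Chrne had 0 and 6 counts in IHC-like and none in OHC-like cells. Markers of skeletal muscle, where these subunits are best known, summed to between 4.34 and 42.4 CPM in the 3 hair cell classes. Their part in the result was not tested. Chrna1 and Chrng were read together in 17 of 17 IHC-like, 10 of 13 OHC-like and 16 of 26 VHC-like cells.

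The 6 partners of the efferent synapse split, with 2 higher in cochlear hair cells, 2 lower and 2 that did not pass. Kcnn2 was higher by 2.39 (adjusted p = 0.0018) and the ryanodine receptor gene Ryr2 by 0.98 (adjusted p = 0.0295). Lower were Ryr3 by a difference of -2.55 (adjusted p = 0.00279) and Kcnma1, which encodes the large-conductance potassium channel, by -2.998 (adjusted p = 0.0150). The muscarinic receptor genes split as well. Chrm1 was higher by 2.42 (adjusted p = 0.0395), whereas Chrm3 was at 3.68 and 6.40 CPM in SGN-like cells and had no count in IHC-like or OHC-like cells (adjusted p = 0.00570). Of 3 genes of acetylcholine synthesis, transport and breakdown that were tested, 2 were lower and none was higher. Ache, which encodes acetylcholinesterase, was at 281 and 277 CPM in SGN-like cells and at 2.17 or less in IHC-like and OHC-like cells (difference -8.04, adjusted p = 9.5e-05). Of 12 chaperones, anchors and modulators tested, 9 were lower and none was higher. The receptor chaperone gene Tmem35 was lower in hair cells by a difference of -6.92 (adjusted p = 0.000196) and the modulator genes Lypd6 and Lypd6b by -2.37 and -2.93 (adjusted p = 0.0114 and 0.000144). Lynx1 was at 6.31 and 8.37 CPM in SGN-like cells and had no count in IHC-like or OHC-like cells (adjusted p = 0.00227). The chaperone gene Ric3, which assists Chrna7 and other subunits, did not pass the test, with 70.5 and 53.5 CPM in IHC-like, 55.9 and 78.0 in OHC-like and 72.1 and 74.9 in SGN-like cells.

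The second comparison set OHC-like against IHC-like cells at E18.5. In the mature cochlea efferent fibres contact outer hair cells directly, whereas their contacts on inner hair cells are transient. Chrna1 was the subunit that differed: 1 of the 5 subunits tested passed, with 7.38% of 11429 genes passing, 3.19% higher and 4.18% lower. Chrna1 was lower in OHC-like cells by a difference of -3.16 ± 0.39 on the log2 scale (adjusted p = 0.000222), at 100 and 28.1 CPM against 563 and 579, and the plates of the 2 classes did not overlap. A single cell gave 53.8% of the OHC-like counts of Chrna1 on replicate 1 and 78.0% on replicate 2. Chrna9 differed by 0.04 ± 0.17 (adjusted p = 0.951), and its levels overlapped. Chrna10 was at 971 and 951 CPM in OHC-like and 728 and 579 in IHC-like cells, which did not overlap (difference 0.50 ± 0.16, adjusted p = 0.0755, or 0.0490 with the plate as a block and from 0.0330 to 0.0758 over the other alternatives). Chrnb2 was at 82.0 and 94.4 CPM against 29.5 and 44.6 (difference 1.17 ± 0.35, adjusted p = 0.0631, or 0.0481 with DESeq2). Over all alternatives its difference ran from 0.175 to 1.42 and its adjusted p from 0.0280 to 0.835. Chrnb4 differed by 0.81 ± 0.65 (adjusted p = 0.593) and overlapped. Chrna3, Chrna4 and Chrna7 had too few counts to be tested.

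Among the 37 pathway genes, 18 were tested between OHC-like and IHC-like cells, and 3 were higher and 4 lower in OHC-like cells (median 0.23, against -0.0047 over all genes). Chrng, the partner of Chrna1, was lower by a difference of -1.04 (adjusted p = 0.00674), and Kcnn2 by -1.58 (adjusted p = 0.0276) with 31.2 and 20.5 CPM against 61.5 and 88.0. The Ly6 family modulators diverged. Lypd6b was at 65.1 and 40.7 CPM in IHC-like cells and had 0 and 1 counts in OHC-like cells (adjusted p = 0.00014). Lypd6 was at 23.5 and 39.5 CPM in IHC-like cells and had 2 and 0 counts in OHC-like cells (adjusted p = 0.00108), whereas Ly6e was higher by 3.38 (adjusted p = 4.3e-05), at 132.9 and 149 CPM against 11.5 and 13.98. Ryr1 was at 25.8 and 34.2 CPM in OHC-like cells and had 1 count in each IHC-like sum (adjusted p = 0.000865), and the calcium pump gene Atp2b2 was higher by 1.88 (adjusted p = 0.00215). The 6 markers of otic epithelium and supporting cells were all detected in both classes, at a sum of 6709 and 9218 CPM in IHC-like and 1782 and 2210 in OHC-like cells, and their part in these results was not tested.

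The third comparison set VHC-like cells against the named cochlear hair cells at E18.5. The efferent subunit Chrna9 was lower in VHC-like cells and its partner Chrna10 was not shown to differ. Of 6 subunits tested, 3 passed, with 10.1% of 12708 genes passing, 5.87% higher and 4.27% lower. Summed over IHC-like and OHC-like cells, Chrna9 was at 728 and 595 CPM against 332 and 251 in VHC-like cells, without overlap (difference -1.17 ± 0.22, adjusted p = 0.0146, or 0.0568 when the unnamed cochlear cells were added). Chrna1 was at 273 and 436 CPM against 162 and 163 (difference -1.13 ± 0.26, adjusted p = 0.032, or 0.0531 with the plate as a block). Chrna10 was at 880 and 676 CPM against 591 and 594 (difference -0.38, adjusted p = 0.299). With classes taken from each cell's own marker score, 1 subunit passed, since Chrna9 and Chrna1 gave -0.91 and -0.50 (adjusted p = 0.0946 and 0.397).

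Chrna4 was at 32.0 and 21.5 CPM in VHC-like cells and at 0.674 and 0.713 in the named cochlear hair cells (difference 5.22 ± 0.65, adjusted p = 0.00283). It was read in 16 of 26 VHC-like cells. This call rested on which cochlear cells were included: the unnamed cochlear hair cells of replicate 2 were at 115 CPM, and with unnamed cells added the difference was 1.22 (adjusted p = 0.603). The same addition took the difference of Chrna4 between cochlear hair cells and neurons from -7.91 to -3.82 (adjusted p = 0.0379). The neuronal markers summed to 1265 to 1411 CPM in VHC-like and 792 to 896 in named cochlear hair cells. Most of the VHC-like sum was Nefl (508 and 454 CPM on replicates 1 and 2) and Nefm (753 and 630). Tubb3, Elavl3 and Gap43 were at 4.02 CPM or less there, against 12.1 or less in IHC-like and OHC-like cells. Elavl4 (12.2 and 22.1 CPM) and Ntrk3 (19.8 and 11.4) were higher there than in IHC-like and OHC-like cells, at 6.09 or less. The part of these markers in the Chrna4 level was not tested. Chrnb4 was at 7.03 and 1.12 CPM in VHC-like against 38.9 and 11.9 in cochlear cells (difference -2.63 ± 0.89, adjusted p = 0.116, 0.0428 with the plate as a block, 0.0168 with DESeq2 and 0.000365 with no filter on low counts), and Chrnb2 differed by 0.13 (adjusted p = 0.87). Of the pathway list, 18 genes were tested, with 3 higher and 2 lower in VHC-like cells (median -0.59, against 0.0024 over all genes). Ly6e and Ly6h were higher by 2.13 and 1.46 (adjusted p = 0.00639 and 0.0134), Chrm3 was at 3.39 and 3.80 CPM against no count (adjusted p = 0.0366), and Kcnn2 and Agrn lower by -3.26 and -1.43 (adjusted p = 0.00533 and 0.0241). Art1, which overlaps Chrna10, was at 40.1 and 94.6 CPM in VHC-like cells and between 6.27 and 12.7 in IHC-like and OHC-like cells, and its part in the Chrna10 level was not tested.

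The 10 and 3 cochlear hair cells with neither inner nor outer name at E18.5 carried less Chrna9 and Chrna10 than IHC-like and OHC-like cells. Their Chrna1 lay under that of IHC-like and above that of OHC-like cells. In the unnamed cells Chrna9 was at 347 and 151.4 CPM, Chrna10 at 372 and 219 and Chrna1 at 304 and 120. Both efferent subunits were read in 11 of 13 of them. Hair cells were few before E18.5, and their values are given without a test. On replicate 1 at E16.5, 4 hair cells gave 127 CPM of Chrna1, 180 of Chrna9, 233 of Chrna10 and 59.8 of Chrnb2, with reads of each in all 4 cells. On replicate 3 at E16.5, 8 hair cells gave 137 CPM of Chrna1, read in 2 cells, 63.0 of Chrna9 and 179 of Chrna10, each read in 3 cells, and no Chrnb2. Chrna1 came from 5 VHC-like cells alone, the 2 IHC-like cells and 1 unnamed cell having none. At E17.5, 5 hair cells gave 44.2 CPM of Chrna1, 157 of Chrna9 and 71.6 of Chrna10, each read in 1 cell. Transcripts of both efferent subunits were therefore read in hair cells from the earliest stage at which such cells were caught.

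The next comparisons followed the subunits in SGN-like cells from E14.5 to P3. Chrna3 fell at each of the 3 steps tested, Chrnb2 fell between E17.5/E18.5 and P3, and no other subunit passed edgeR's test over all plates. Chrna4 and Chrna9 passed at single steps under the alternatives given with their values. Chrna3 was at 85.6 and 65.6 CPM at E14.5, 17.2 and 26.3 at E15.5, 31.5, 28.2 and 32.0 at E16.5, 12.1 at E17.5, 12.2 and 12.2 at E18.5 and 2.56 and 2.78 at P3. The level at E15.5 lay under that at E16.5, so the course was not even. A sub-cluster of 17 SGN-like cells at E14.5, led by Th, Gal, Htr3a and Prdm12, was at 98.6 and 102 CPM of Chrna3 against 84.2 and 58.0 in the other SGN-like cells. Markers of cholinergic efferent or autonomic neurons summed to 4.69 and 5.49 CPM at E14.5 and to 0.663 or less later. Slc18a3 gave 4.69 and 5.17 CPM of the E14.5 sums, and Chat had no count there. The share of cells with a Chrna3 read was 60 of 130 at E14.5, 360 of 773 at E16.5, 235 of 660 at E18.5 and 49 of 501 at P3. These shares were not taken at like depth. Over all cells kept, plate medians were 277856 and 270683 counts per cell at E14.5 and 829034 and 1092427 at P3. Median genes per cell were 4983 and 4893.5 at E14.5 and 8477, 8426 and 4695 at E16.5.

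Between E14.5 and E16.5, 1 of 7 subunits tested passed (11.9% of 16795 genes, 7.3% higher and 4.61% lower): Chrna3 changed by -1.33 ± 0.20 on the log2 scale (adjusted p = 0.00217), by -1.24 without the 17-cell sub-cluster (adjusted p = 0.00434) and by -1.52 without the TrkCcre plate (adjusted p = 0.00329). From E16.5 to E17.5 and E18.5 together it was again 1 of 7 (0.387% of genes, 0.196% higher and 0.191% lower), Chrna3 at -1.34 ± 0.19 (adjusted p = 0.0171). From E17.5 and E18.5 to P3, 2 of 7 passed (29.7% of genes, 14.7% higher and 15% lower), Chrna3 at -1.93 ± 0.22 (adjusted p = 0.000151) and Chrnb2 at -0.92 ± 0.17 (adjusted p = 0.00206). The first 2 changes of Chrna3 rested on all plates: with the plates of the one series that spans E14.5 to E17.5 they were -1.25 and -1.39 (adjusted p = 0.1804 and 1). Leaving out the SGN-like cells with more glial marker counts gave -0.85 for the second (adjusted p = 0.302), and leaving out replicate 1 or 2 of E16.5 or replicate 1 or 2 of E18.5 gave values from -1.37 to -1.30 (adjusted p from 0.0878 to 0.109). The P3 plates formed a plate series of their own, so stage and series cannot be told apart there.

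Chrna4 had its highest levels at E14.5 and E15.5, at 386 and 313 CPM at E14.5, 425 and 397 at E15.5, 255, 233 and 309 at E16.5, 226 at E17.5, 160 and 166.2 at E18.5 and 114 and 110 at P3. The plates of E15.5, E16.5, E18.5 and P3 did not overlap, but the changes of Chrna4 were -0.42, -0.54 and -0.45 over the 3 steps (adjusted p = 0.145, 0.170 and 0.0799) and none passed with edgeR over all plates. With DESeq2 the later 2 passed (adjusted p = 0.0460 and 0.0470), and without E17.5 they were -0.69 and -0.25 (adjusted p = 0.0179 and 0.252). Chrnb2 was at 182 and 169 CPM at E14.5, 165.7 and 167.9 at E15.5, 152, 144.03 and 181 at E16.5, 165 at E17.5, 119 and 118 at E18.5 and 55.0 and 63.6 at P3. Chrna4 and Chrnb2 were read together in 445 of the 501 neurons of P3 and in 87 of the 130 of E14.5. Cells of P3 were read deeper (plate medians of 829034 and 1092427 counts against 277856 and 270683), so these shares cannot be compared directly. The summed glial markers in these neuronal sums went from 62.1 and 91.7 CPM at E14.5 to 2481 and 2495 at E18.5 and 4375 and 5396 at P3, and their part in the falling levels was not tested.

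**Figure D3:**
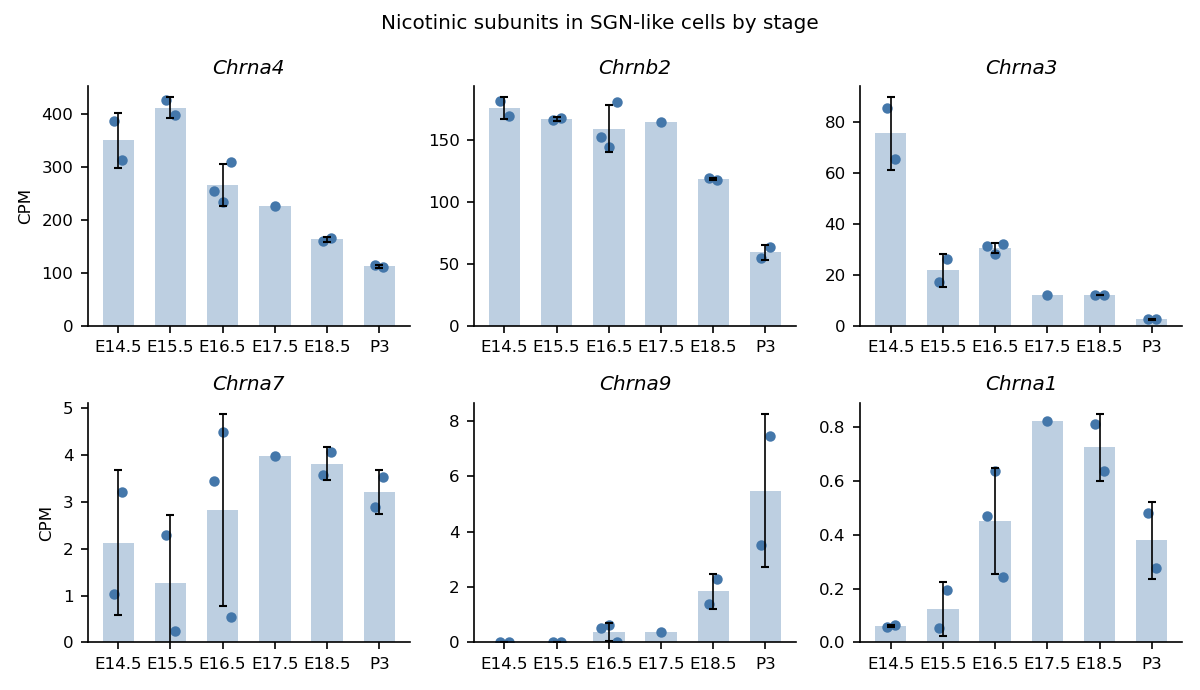
Levels of 6 nicotinic subunits in SGN-like cells by stage, in CPM of the counts summed per plate; bars are means, points the plates and error bars the SD where a stage has more than 1 plate. Chrna3 goes from 85.6 and 65.6 CPM at E14.5 to 2.56 and 2.78 at P3, and Chrna9 from 0 to 3.52 and 7.44.

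Chrna9 went the other way in level, without passing edgeR's test over all plates. It had no count at E14.5 or E15.5, which allows a share of up to 2.31% and 1.79% of the neurons with a read, and then 0.503, 0.636 and 0 CPM at E16.5, 0.380 at E17.5, 1.40 and 2.30 at E18.5 and 3.52 and 7.44 at P3 (P3 against E17.5/E18.5: 2.25 ± 1.13, adjusted p = 0.172). With 3 counts over the E14.5 group as the floor, E16.5 was at least 5.90-fold higher (adjusted p = 0.111, 0.0394 with DESeq2 and 0.0382 without replicate 3 of E16.5). That replicate, without a count, was the only E16.5 plate of the plate series of E14.5, E15.5 and E17.5. The Chrna9 counts of E16.5 thus came only from plates of another series. Those plates had medians of 8477 and 8426 genes per cell against 4695 on replicate 3. At P3, 74 of 501 SGN-like cells (14.8%) had a read and 57 had at least 10, with 2168 Chrna9 counts in all against 44 of Chrna10 in 2 cells. No hair cell was found on the P3 plates. The 9 hair cell markers summed to 198 and 201 CPM in the P3 neurons against 239 and 362 in those of E14.5, where Chrna9 had no count. At P3 Atoh1, Gfi1 and Pou4f3 were at 0, Otof and Tmc1 at 0.283 or less, Myo7a at 10.0 and 13.1, Myo6 at 57.2 and 47.7 and Cib2 at 115.8 and 92.1 CPM. Espn went with Chrna9, from 0 at E14.5 to 5.42 and 3.78 CPM at E18.5 and 17.8 and 44.9 at P3, and its part was not tested. Chrna7 stayed between 0.243 and 4.49 CPM on every plate, Chrnb4 between 0 and 8.58, Chrna1 at 0.822 or less and Chrna10 at 0.318 or less. At these levels small changes were not detectable.

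Of the 37 pathway genes, 32 were tested across stages in SGN-like cells. From E14.5 to E16.5, 6 were higher and 0 lower (median 0.83, against 0.06 over all genes), among them Lypd6b by 1.88, Lypd6 by 1.26, Ly6h by 0.92, Ache by 0.64 and Tmem35 by 0.53 (adjusted p = 0.00145, 0.00826, 0.00661, 0.0204 and 0.0302). From E16.5 to E17.5/E18.5 none passed. At P3, 9 were higher and 3 lower (median 0.48, against -0.09 over all genes). Lynx1, which encodes a membrane-anchored modulator of nicotinic receptors, went from 6.31 and 8.37 CPM at E18.5 to 74.7 and 93.0 (change 4.32, adjusted p = 0.0245). Ly6e was higher by 2.20 (adjusted p = 4.56e-05) and Ric3 by 1.13 (adjusted p = 0.000402), while Agrn was lower by a change of -1.61 (adjusted p = 3.37e-05).

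The last comparisons were between SGN sub-classes named by marker scores, with E17.5, E18.5 and P3 fitted together and stage as a covariate. Type II neurons contact outer hair cells, and the Ia, Ib and Ic neurons of type I contact inner hair cells. The II-like cells carried less Chrna4 than type I-like cells: 2 of 7 subunits tested passed (13.8% of 15215 genes, 5.75% higher and 8.05% lower). Chrna4 was at 27.3 and 27.5 CPM in II-like cells at E18.5 and 9.20 on replicate 1 of P3. The 14 type I-like sums ran from 94.9 to 285 CPM. The main fit took all sums as independent, although sub-class sums of 1 plate share animals. With the plate as a block Chrna4 still passed. The II-like sums held 26 and 20 cells at E18.5 and 18 at P3, and none was formed at E17.5. Too few for a sum were 2 II-like cells of E17.5, at 89.8 CPM of Chrna4, and 4 of replicate 2 of P3, at 0.261. No II-like sum reached the type I-like range (difference -3.23 ± 0.23, adjusted p = 2.51e-07). With classes from each cell's own score the difference was -0.85 (adjusted p = 0.0150). The II-like cells too few for a sum were at 225 CPM of Chrnb2 at E17.5 and 47.3 on replicate 2 of P3. In the II-like sums Chrnb2 was at 81.7 and 89.6 CPM at E18.5 and 44.2 at P3, against 48.7 to 183 in type I-like sums (difference -0.67 ± 0.16, adjusted p = 0.00835). That call was lost with the cells' own score (-0.20, adjusted p = 0.589) and without replicate 1 of E18.5, replicate 2 of E18.5 or replicate 1 of P3 (-0.64, -0.69 and -0.71, adjusted p = 0.0530, 0.0748 and 0.0837). Chrnb4 had no count in II-like cells and did not pass (adjusted p = 0.118, or 0.0383 with DESeq2). With 3 counts over the group as the floor, this was at least 9.81-fold under the pooled type I-like level of 0.879 CPM. Single type I-like sums ran from 0 to 3.98 CPM. The pooled Ic-like level, 0.0778 CPM, lay under the II-like floor of 0.0896 CPM, so II-like and Ic-like cells cannot be told apart for Chrnb4. Chrna3 was at 7.13 and 1.27 CPM in II-like cells at E18.5 and 2.40 at P3 (difference -1.14 ± 0.52, adjusted p = 0.170), and Chrna9, Chrna7 and Chrna1 did not pass either (differences -2.39, -1.59 and -1.35, adjusted p = 0.171, 0.210 and 0.441).

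**Figure D4:**
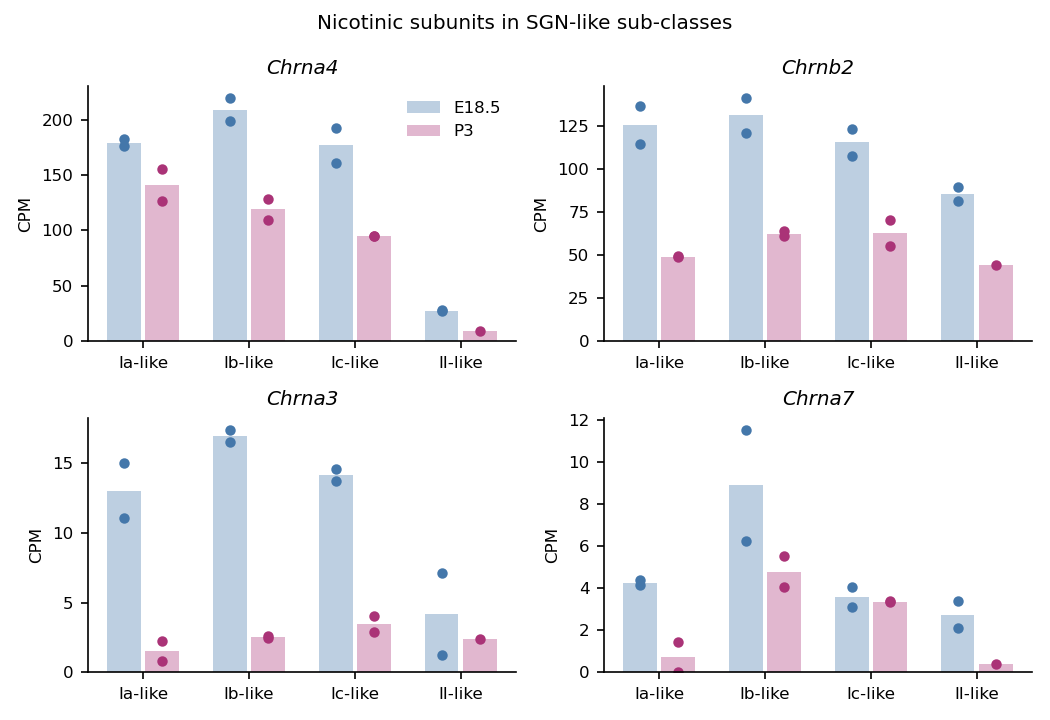
Chrna4, Chrnb2, Chrna3 and Chrna7 in SGN sub-classes at E18.5 (blue) and P3 (purple), in CPM of the counts summed per sub-class and plate; bars are means and points the plates, with 1 plate for II-like cells at P3. For Chrna4 the 3 II-like sums lie between 9.20 and 27.5 CPM, below every Ia-like, Ib-like and Ic-like sum shown.

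Between Ic-like and Ia-like cells 0 of 7 subunits passed edgeR's test (3.96% of genes, 1.83% higher and 2.14% lower), with 1 at an unadjusted p under 0.05 (Chrnb4, 0.0176). DESeq2 called none. Chrna4 was at 183 and 176 CPM in Ia-like, 220 and 199 in Ib-like and 161 and 193 in Ic-like cells at E18.5. Ia-like and Ic-like cells overlapped and Ib-like cells lay above both, a difference that was not tested. Chrna7 was highest in Ib-like cells at E18.5, at 6.25 and 11.5 CPM, against 4.15 and 4.38 in Ia-like and 4.06 and 3.09 in Ic-like cells, and this difference was not tested. At E14.5, 18 and 10 cells were named unspecialized, by markers such as Neurod1 and Nhlh1, and 51 and 51 SGN-like cells stayed unnamed. The unspecialized cells had 110 and 79.2 CPM of Chrna3 and 73.9 and 85.3 of Chrna4. The SGN-like cells of E14.5 as a whole, these included, had 386 and 313 CPM of Chrna4. Of the pathway genes, 28 were tested, with 1 higher and 10 lower in II-like than in type I-like cells (median -0.72, against -0.02 over all genes). Lypd6, Tmem35 and Chrnb1 were lower by -1.70, -0.93 and -2.46 (adjusted p = 0.000152, 3.78e-05 and 0.0116) and Bche was higher by 0.97 (adjusted p = 0.0117). Ic-like cells had 3 higher and 1 lower against Ia-like cells, with Chrm3 higher by 4.27 and Lypd6 by 1.24 (adjusted p = 0.00169 and 0.00233).

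In the other sorted cells the 8 subunits were low on the plates of E14.5, E15.5 and E17.5 and replicate 3 of E16.5, where no glia-like or OM-like sum passed 25.1 CPM for any subunit. On the plates of replicates 1 and 2 of E16.5 and on those of E18.5, Chrna4 was at 48.3 to 187 CPM in glia-like and OM-like sums and Chrnb2 at 28.8 to 102. The neuronal markers of those sums were at 1714 to 6189 CPM, against 87.0 to 645 on the other plates, and their part in the result was not tested.

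Over 79 class and plate sums and 18246 genes, the genes most like each subunit by Pearson's r of log2(CPM + 1) were as follows, as a description, since the sums share plates and cells. Chrna10 went with Gpx2 (0.99), Kncn (0.99) and Lhx3 (0.98), and Chrna1 with Kncn (0.95), Kcna10 (0.94) and Armc4 (0.94). For Chrna9 these were 4930593A02Rik (0.95), Cd164l2 (0.94) and Cdh23 (0.94), the last also used here as a marker of Ib. Chrna4 went with Nsg2, Phactr3 and Ccdc184 (each 0.92) and Chrnb2 with Srrm3 (0.96), Unc13a (0.95) and Celsr3 (0.95). Chrna3 went with Gm5468 (0.88), Nhlh2 (0.88), a marker used for unspecialized neurons, and Pirt (0.87). Chrna7 and Chrnb4 had no gene above 0.72, the highest being Pcdha5 (0.68) for Chrna7 and Gpha2 (0.72) for Chrnb4.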

How the data were processed

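Read counts per gene and well, as deposited by the authors, were used. The submitters' processing notes name STAR, Scanpy and mm10, with no versions, and per the study's methods reads mapping to a single place were counted. The 384 wells of 1 plate without a label, the spike-in columns and the genes the study lists as glial contamination were kept out of the clustering. Wells with more than 1000 genes and under 5% spike-in reads were kept. Each stage was clustered (Scanpy 1.11.5, Leiden resolution 1, 2000 variable genes, 30 components) without the 8 subunits and the 37 pathway genes, and clusters were named from marker scores, by rules revised after marker values, not subunit values, were seen. The members and lists were chosen with earlier results of these data known. No doublet caller was run, and the top 5% of cells by counts were left out in an alternative.

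Counts were summed per class and plate (at least 5 cells, 3 for hair cells) and tested with edgeR 4.0.16 (TMM, filterByExpr, quasi-likelihood), R 4.3.3, with Benjamini-Hochberg adjustment over all genes. Tests were checked on simulated data, where most of the smaller changes went uncalled between groups of 2 or 3 plates, so a test not passed does not show like levels. Plates are samples by label, and where they shared animals their p-values measure technical spread. The class sums of 1 plate come from the same pooled animals, so the plate pairs them. Deviations of same-plate sums correlated at 0.028 for cochlear hair cells and neurons, -0.006 for OHC-like and IHC-like cells, -0.002 for VHC-like and cochlear cells and -0.10 to 0.49 over 19 pairs of sub-classes. Subunits without a value in a comparison did not pass there or had too few counts to be tested. Pathway genes were named only where past the threshold, with Chrnd, Chrne and Ric3 as exceptions. Chrnd and Chrne were given as the remaining subunits of the muscle receptor, and Ric3 was named after its values were seen. Alternatives are given in the closing section.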

Additional observations from a re-analysis of the deposited data

How the results depend on the processing

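Of 846 recomputed log2 differences of the subunits, 773 stayed the same. These kept their direction and side of the threshold or, where no test could be run, moved within the SE of the main fit. Hair cells against neurons kept 8 of 8 calls under every alternative with a test, from DESeq2 to the plate as a replicate block. OHC-like against IHC-like cells had 1 call, 2 with DESeq2, Leiden resolution 2, the study's stricter cell filter, the plate as a replicate block or the top 5% of cells left out, and 3 with no filter on low counts. VHC-like against cochlear hair cells had 3 calls, 4 with DESeq2 or no filter on low counts, and 1 with the cells' own marker score or with unnamed cells added. E16.5 against E14.5 had 1, 2 with DESeq2, 0 on plates of series SS2_20 and from 1 to 2 with a replicate left out. E17.5/E18.5 against E16.5 had 1, 2 with DESeq2, 0 without glia-rich neurons or on series SS2_20, and from 0 to 2 with a replicate left out. P3 against E17.5/E18.5 had 2, and 3 with DESeq2. II-like against type I-like cells had 2, 3 with DESeq2, 1 with the cells' own score and from 1 to 2 with a replicate left out. Besides the calls of Chrna10, Chrna1 and Chrnb4 given beside their results, the plate as a replicate block changed no call of a subunit. In the hair cell comparisons a replicate left out leaves no residual degrees of freedom, so only values could be given. The cause of these changes was not tested.

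The values that turned direction passed no test in either fit. For Chrna9 in OHC-like against IHC-like cells they were -0.19 (Leiden resolution 2), -0.20 (stricter cell filter) and -0.13 (top 5% left out), and for Chrnb2 in VHC-like against cochlear cells -0.68 (cells' own score). E16.5 against E14.5 gave 0.060 and 0.032 for Chrnb2 (glia-rich neurons left out, series SS2_20), -1.94 for Chrna7 (series SS2_20), and, with a replicate left out, -0.15 to 1.44 for Chrna7 and -2.65 to 9.85 for Chrnb4. E17.5/E18.5 against E16.5 gave -0.013 to 0.94 for Chrna7 with a replicate left out. P3 against E17.5/E18.5 gave for Chrna7 0.012 (Leiden resolution 2), 0.013 (no filter), 0.038 (glia-rich neurons left out) and -0.16 to 0.13 with a replicate left out, and for Chrnb4 -0.12 to 2.98. Chrna1 in II-like cells gave 0.51 (cells' own score), and Chrna4 in Ic-like against Ia-like cells 0.17 (top 5% left out) and -0.34 to 0.025 with a replicate left out.

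Calls over all genes moved by over 1.5 times from 1289 to 585 (cells' own score) and 2139 (no filter) for VHC-like against cochlear cells, from 2000 to 3409 (DESeq2) and 320 (series SS2_20) for E16.5 against E14.5, from 65 to 805 (DESeq2), 113 (no filter), 107 (glia-rich neurons left out) and 0 (series SS2_20) for E17.5/E18.5 against E16.5, from 2100 to 747 (cells' own score) and 1160 (top 5% left out) for II-like cells, and from 603 to 957 (DESeq2) and 911 (plate as a replicate block) for Ic-like cells. With a replicate left out they ran from 1087 to 2701, 3 to 996, 2829 to 5392, 786 to 3199 and 275 to 702 for the 3 stage steps, II-like and Ic-like cells. The alternative with plates of series SS2_20, that with unnamed hair cells and the one without an E14.5 sub-cluster were chosen after seeing the data. With 2 plates a stage and 4 to 13 cells a hair cell class, small differences were beyond these data.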
